A study of Mus musculus with 6 samples.

Results

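The genes described here are the chemokines and the chemokine receptors, taken as every gene probe whose name, or whose current symbol by accession, begins with Ccl, Cxcl, Ccr or Cxcr and a digit, or is Cx3cl1, Cx3cr1, Xcl1 or Xcr1. Ccrn4l and the Ccrl genes were left out. The rule found 71 probes of 55 genes, among 55681 probes with 34741 gene names, and used no measured value. Of the 55 genes, 35 encode ligands (20 of the CC type, 13 of the CXC type, Cx3cl1 and Xcl1) and 20 encode receptors. Ackr3, an atypical receptor, was included because the array design calls it Cxcr7.

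Total RNA was hybridized to 6 one-color arrays, 3 with normal liver and 3 with liver tumor of C3H mice, a strain whose males develop liver tumors spontaneously in adulthood. All mice were male, C3H/HeN, 74 to 75 weeks old, and came from the F2 pups of a control group kept on a standard diet and tap water. By the study's methods the tumors carried a Ha-ras mutation, so tumors without that mutation are not represented. The labels do not say whether replicates came from separate animals, so p-values measure only the spread between these samples, which may be technical. All 3 normal livers were on slide 1 and all 3 tumors on slide 2, so an effect of the slide and one of the tissue cannot be told apart. Local background had a median of 42 to 45 on slide 1 and 22 to 23 on slide 2, and 44.7% to 47.2% of spots in normal livers and 47.3% to 48.9% in tumors were well above background. Log2 values correlated at 0.989 to 0.992 between normal livers, 0.980 to 0.990 between tumors and 0.914 to 0.950 between a normal liver and a tumor, across probes, which are not independent replicates. The hepatocyte markers, Alb and Ttr among them, were above background in both groups, and their summed expression value ran from 8739 to 9536 in normal livers and from 7891 to 8258 in tumors, with 1 of the 10 higher and 3 lower.

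Chemokines are small secreted proteins that direct the movement of leukocytes along concentration gradients. They act through seven-pass membrane receptors coupled to inhibitory G proteins, and CC and CXC ligands differ in the spacing of their first conserved cysteines. In the liver they are made by hepatocytes, Kupffer cells, sinusoidal endothelial cells, stellate cells and bile duct cells, and they control the entry and position of T cells, neutrophils and monocytes. Many ligand genes respond to NF-kB or to interferon through short elements close to the start of the gene.

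Promoter sequences of the following 4 ligands are shown because their transcripts differed between the tissues, 3 being higher and 1 lower in the tumors. Cxcl14 was taken by rule, as a called ligand with one of the largest rises, and Cxcl10, Cxcl1 and Cxcl12 were chosen after their values were seen. Cxcl17 was named by the same rule and had no entry in the promoter table. Each sequence is the 250 bases before the RefSeq gene start in GRCm38.p6, the reference assembly and not that of the C3H strain, 5′ to 3′ on the gene's strand. Capitals mark matches to 4 motifs searched on both strands: kB (GGG, a purine, any 2 bases, 2 pyrimidines, CC), ISRE (GAAA, any 2 bases, GAAA), GAS (TTC, any 3 bases, GAA) and AP-1 (TGANTCA). Cxcl10 lies at chr5:92348890-92349139 (minus strand), Cxcl1 at chr5:90890995-90891244 (plus), Cxcl14 at chr13:56296552-56296801 (minus) and Cxcl12 at chr6:117168285-117168534 (plus).
Cxcl10: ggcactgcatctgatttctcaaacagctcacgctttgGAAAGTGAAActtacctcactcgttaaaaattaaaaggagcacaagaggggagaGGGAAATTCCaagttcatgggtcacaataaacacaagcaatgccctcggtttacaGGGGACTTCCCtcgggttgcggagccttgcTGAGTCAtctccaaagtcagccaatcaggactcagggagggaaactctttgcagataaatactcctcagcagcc
Cxcl1: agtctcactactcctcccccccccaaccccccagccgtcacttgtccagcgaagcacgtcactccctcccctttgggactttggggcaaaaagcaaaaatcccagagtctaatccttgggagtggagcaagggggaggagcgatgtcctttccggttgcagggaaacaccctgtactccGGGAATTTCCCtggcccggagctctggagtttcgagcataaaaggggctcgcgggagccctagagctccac
Cxcl14: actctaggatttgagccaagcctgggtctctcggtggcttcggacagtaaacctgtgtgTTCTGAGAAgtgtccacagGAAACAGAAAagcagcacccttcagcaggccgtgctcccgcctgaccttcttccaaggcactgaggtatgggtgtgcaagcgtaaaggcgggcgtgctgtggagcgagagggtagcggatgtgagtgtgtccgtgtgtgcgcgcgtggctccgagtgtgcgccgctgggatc
Cxcl12: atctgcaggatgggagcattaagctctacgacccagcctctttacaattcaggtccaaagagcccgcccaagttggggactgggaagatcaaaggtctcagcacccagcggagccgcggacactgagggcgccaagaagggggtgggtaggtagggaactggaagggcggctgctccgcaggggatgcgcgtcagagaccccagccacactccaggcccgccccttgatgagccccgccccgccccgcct

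The Cxcl10 window held an ISRE match from base -213 to -204, a kB match from -159 to -150, overlapping kB matches from -104 to -94 and an AP-1 match from -74 to -68, counted from the gene start. In Cxcl1 a pair of overlapping kB matches spanned -71 to -61. Cxcl14 held a GAS match from -191 to -183 and an ISRE match from -172 to -163. Cxcl12 held none of the 4 motifs, which says only that these letters were absent from this window. Of the other called members with a window, Cxcl9 had an AP-1 match from 32 to 38 after the start, and Ccl6, Cx3cr1 and Cxcl13 had no match. Windows from 250 bases before to 50 after the start were found for 40 of the 55 members, 44 windows in all. The kB motif was in 25.0% of these and in 8.46% of all 32851 windows, AP-1 in 18.2% and 7.81%, ISRE in 6.82% and 3.44%, and GAS in 9.09% and 8.30%. A match is a stretch of letters and not a measured binding site, and members of a gene cluster share ancestry, so that their windows are not independent.

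**Figure D1:**
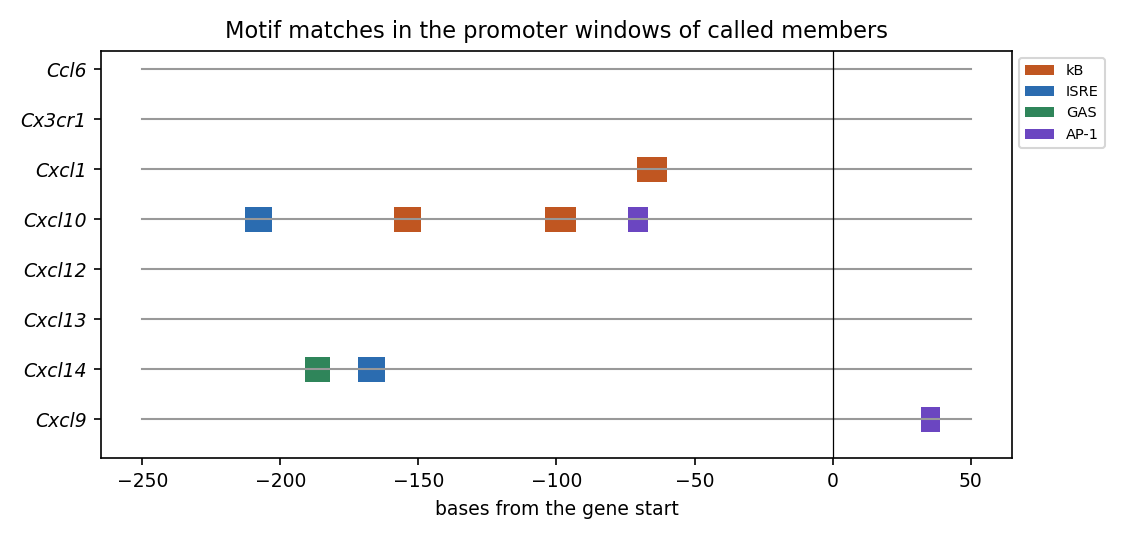
Positions of motif matches from 250 bases before to 50 bases after the gene start (x axis, bases; vertical line, start) in the 8 called members with a promoter window, one row per gene, with colors for the 4 motifs. Cxcl10 holds kB, ISRE and AP-1 matches, Cxcl1 overlapping kB matches and Cxcl14 an ISRE and a GAS match, while Cxcl12, Cxcl13, Cx3cr1 and Ccl6 hold none.

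On at least 1 array, 22 of the 35 ligands and 14 of the 20 receptors were well above background. A probe was tested where all 3 arrays of one or both groups were well above background, which left 22 of the 55 members, 19 ligands and 3 receptors. Of these, 9 were called at a limma adjusted p under 0.05, 7 higher and 2 lower in the tumors. The higher ones were the CXC ligands Cxcl17, Cxcl14, Cxcl1, Cxcl10, Cxcl13 and Cxcl9 and the receptor Cx3cr1, and the lower ones were Cxcl12 and Ccl6. The 9 called members were 40.9% of those tested, against 34.2% of all 18566 genes tested. By direction, 31.8% of the tested members were higher, against 13.1% of all genes, and 9.09% were lower, against 21.0%. A gene dim in one group passes this filter only when it is bright in the other, and Cxcl17 and Cx3cr1 entered in this way. In a refit of only the probes above background on all 6 arrays, which held 20 members, 5 were called higher and 3 lower, Ccl19 being the added one, against 11.7% higher and 22.7% lower of all genes so tested. The groups did not overlap for 12 of the 22 tested members, or 54.5%, against 51.8% of all genes tested. The median log2 fold change of the tested members was 0.0028, and that of all genes tested was -0.13.

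By type of ligand, 6 of 9 tested CXC ligands were called higher and 1 lower, where 13.1% of all genes tested were higher and 21.0% lower. Among the 6, Cxcl17 passed the filter only through the tumors. Of the 9, 8 had a log2 fold change above 0, but Cxcl11 and Cxcl16 were at 0.03 and 0.08. Both turned below 0 when single arrays were left out. Of 9 tested CC ligands, 1 was called lower and none higher, and 8 of the 9 had a log2 fold change below 0. The median of all genes tested was also below 0, at -0.13. When the arrays were scaled by spike-ins, Ccl5 turned above 0. Ccl1, Ccl27a, Ccl25 and Ccl9 then came to -0.0042, -0.0025, -0.0365 and -0.0594, and Ccl6, Ccl19 and Ccl24 to -0.97, -0.42 and -1.30. The difference between the ligand types was not tested.

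**Figure D2:**
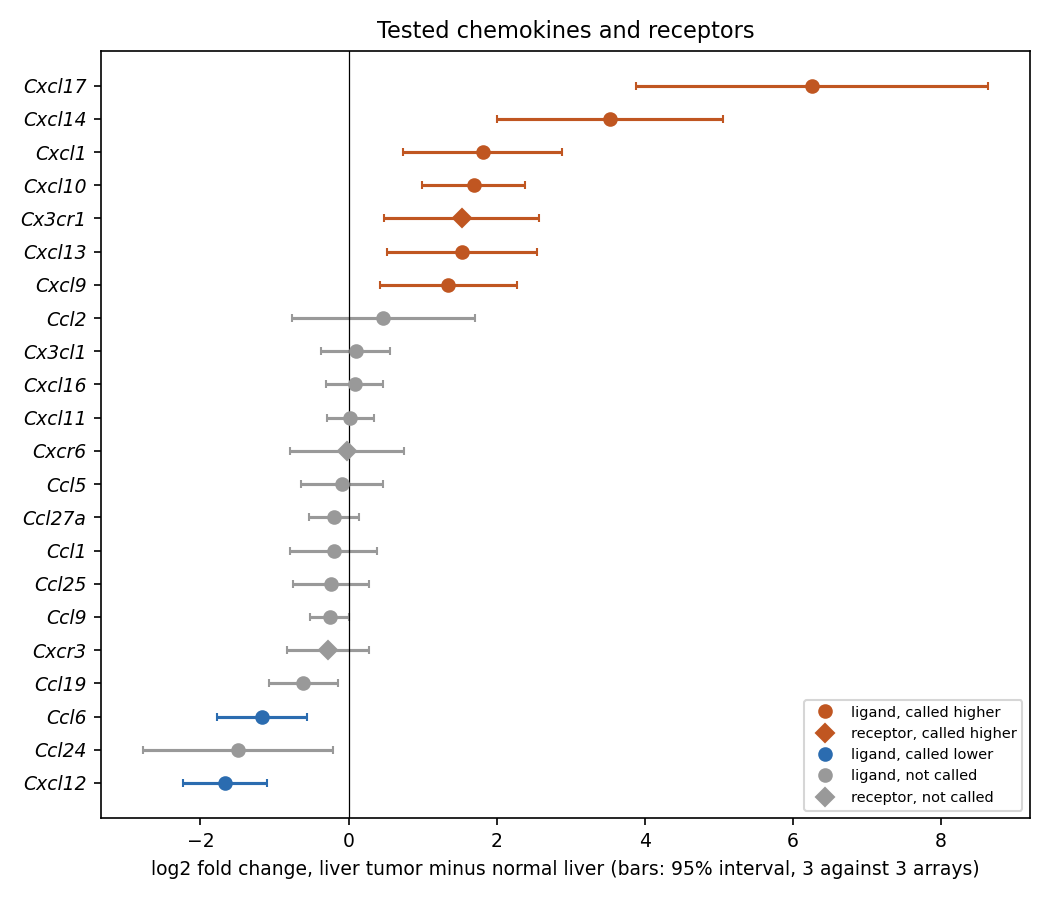
Log2 fold change of the 22 tested members, liver tumor minus normal liver (x axis), with 95% intervals from limma over 3 against 3 arrays. Orange points were called higher, blue points lower and grey points were not called, and the grey interval of Ccl2 reaches from -0.77 to 1.71, across 0.

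The expression values below are linear ratios to the 75th percentile of the array's signal, listed for replicates 1, 2 and 3, and a fold is the ratio of geometric means. They depend on the probe and are compared between arrays only, never between genes. In these bulk tissues, fewer cells of a type and less RNA per cell cannot be told apart.

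The largest differences belonged to Cxcl17 and Cxcl14, ligands made by epithelia. Cxcl17, known from mucosal surfaces, gave 0.0383, 0.0317 and 0.0280 in normal livers, on no array well above background, and 9.83, 3.08 and 0.498 in tumors. Every tumor was above every normal liver, and the tumors themselves spread widely (4.47 ± 4.82, SD, n = 3), with tumor 1 the highest and tumor 3 the lowest. The difference was at least 19.0-fold, a bound set by the dimmest signals well above background on the normal arrays. The limma adjusted p of 0.00578 belongs to the fit to the measured values, with normal livers near the floor, and not to this bound. Without tumor 1 the bound was 9.54-fold, without tumor 3 it was 42.4-fold, and normexp background correction with an offset gave a log2 fold change of 2.83, under the bound. Cxcl14, a ligand expressed constitutively in many epithelia, was 1.09, 0.381 and 0.495 in normal livers and 3.41, 5.76 and 16.3 in tumors. Here tumor 3 was the highest and tumor 1 the lowest, the reverse of Cxcl17. Mean values were 0.656 ± 0.382 and 8.48 ± 6.85 (SD, n = 3), with a log2 fold change of 3.53 (SE 0.64, limma adjusted p = 0.00872), or 11.6-fold. Among other ligands of epithelia, Ccl25, which draws T cells to gut and thymus through Ccr9, averaged 2.80 in normal livers and 2.44 in tumors (log2 fold change -0.23, SE 0.21, limma adjusted p = 0.441). Ccl27a, the ligand of Ccr10, averaged 0.525 and 0.456 (log2 fold change -0.20, SE 0.14, limma adjusted p = 0.314). The remaining epithelial ligands, Ccl20, Ccl28 and Cxcl15, were above background on no array. Markers of cholangiocytes, the epithelial cells of bile ducts, summed to 2.35 to 2.96 in normal livers and 1.95 to 2.22 in tumors, 0 of 4 tested were called and Muc1 was above background on no array. Their part in the Cxcl17 and Cxcl14 differences was not tested.

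**Figure D3:**
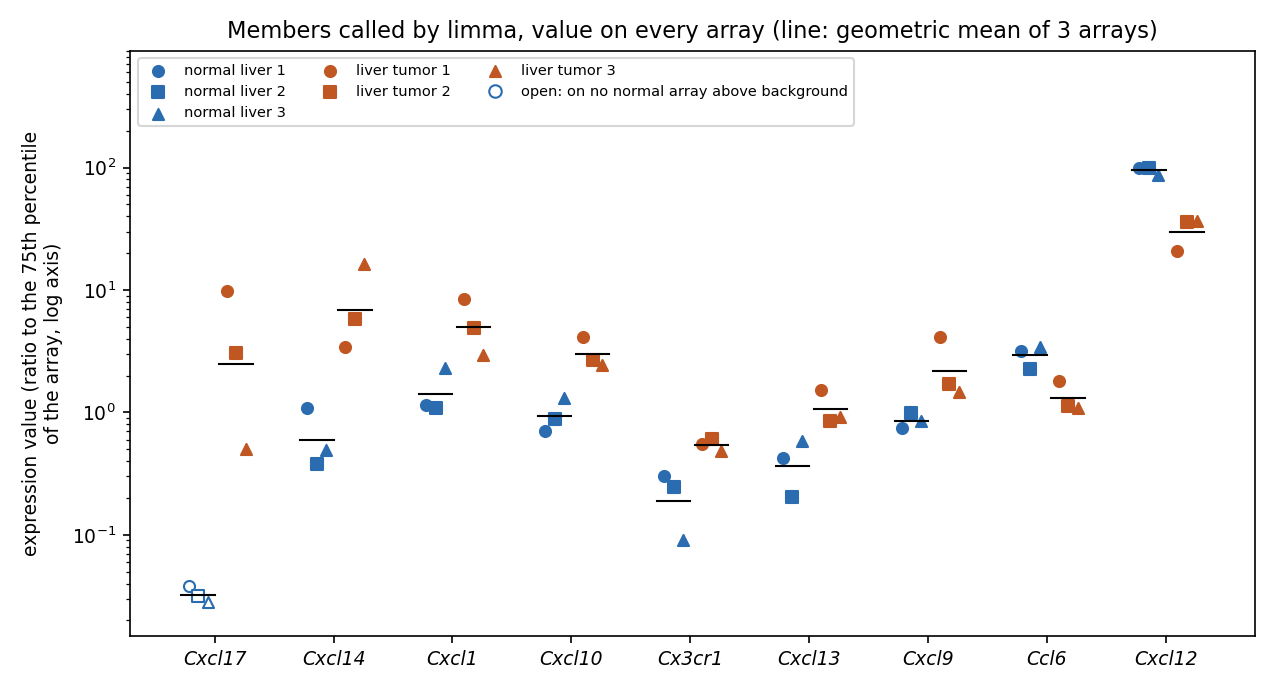
Expression value (y axis, ratio to the 75th percentile of the array, log axis) of the 9 called members on each of the 6 arrays, in blue for normal livers and orange for liver tumors, with the geometric mean of each group as a line. Cxcl17 and Cxcl14 show the widest spread among tumors, from 0.498 to 9.83 and from 3.41 to 16.3, and open symbols mark a group with no array above background.

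Neutrophil-attracting ligands act through Cxcr2 and carry an ELR motif before the CXC. Of the 4 members grouped here under this role only Cxcl1 was tested, at 1.15, 1.08 and 2.29 in normal livers and 8.49, 4.90 and 2.95 in tumors. The lowest tumor lay above the highest normal liver, normal liver 3. Its log2 fold change was 1.81 (SE 0.45, limma adjusted p = 0.0245), or 3.51-fold. Cxcl5, a ligand of the same receptor, was above background in tumors 1 and 2 only, with 0.475, 0.161 and 0.0247 in tumors and 0.0279 to 0.0375 in normal livers. It was not tested, and tumor 3 was no higher than the normal livers. Cxcl2 and Cxcl3 were above background on no array, although Cxcl1 and Cxcl2 are neighboring genes on chromosome 5. Neutrophil markers had a summed expression value of 150.8 to 171.4 in normal livers and 133.4 to 184.8 in tumors, 0 of the 6 tested were called, and Mmp9 was above background on no array. Nearly all of that sum was Csf3r, and the other 9 markers summed to 9.59 to 12.1 in normal livers and 9.11 to 23.1 in tumors. S100a8 and S100a9, products of neutrophils, were highest in tumor 1, where Cxcl1 and Cxcl5 were also highest, at 3.37 and 12.9, and neither was called.

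Cxcl9, Cxcl10 and Cxcl11 are ligands of Cxcr3, which guides activated T cells and NK cells, and are classically induced by interferon. Cxcl10 was 0.700, 0.877 and 1.32 in normal livers and 4.10, 2.70 and 2.46 in tumors. Means were 0.964 ± 0.317 and 3.09 ± 0.886 (SD, n = 3) and the log2 fold change 1.69 (SE 0.29, limma adjusted p = 0.00737), or 3.23-fold. Cxcl9 was 0.752, 0.988 and 0.847 in normal livers and 4.11, 1.71 and 1.46 in tumors, with a log2 fold change of 1.34 (SE 0.39, limma adjusted p = 0.0387), or 2.54-fold. A second Cxcl9 probe was also called, at 0.99 (SE 0.28, limma adjusted p = 0.0350). In both genes the groups did not overlap and tumor 1 was the highest array. In the order of protein-coding genes of GRCm38.p6 a single gene lies between them on chromosome 5. Cxcl11 averaged 774 in normal livers and 785 in tumors (log2 fold change 0.03, SE 0.13, 95% interval -0.30 to 0.35, limma adjusted p = 0.899), and a second probe was not called either, at 0.16 (limma adjusted p = 0.343). RefSeq lists Cxcl11 of the reference assembly as a transcribed pseudogene, and what the brighter probe measures was not tested. The receptor Cxcr3 averaged 0.250 and 0.206 (log2 fold change -0.28, SE 0.23, limma adjusted p = 0.388). Ifng, the inducer for which these ligands are known, was above background on no array, while both chains of its receptor were higher in tumors, as given with the inducers.

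Homing ligands place lymphocytes and stem cells in tissue. Cxcl12, which binds Cxcr4 and Ackr3 and is made by stromal and endothelial cells, was 99.1, 100.02 and 86.8 in normal livers and 20.7, 35.6 and 36.3 in tumors. The highest tumor was well under the lowest normal liver, and means were 95.3 ± 7.40 and 30.9 ± 8.81 (SD, n = 3). Its log2 fold change was -1.67 (SE 0.23, limma adjusted p = 0.00400), so the tumors were 3.18-fold lower. A second probe, matched to another transcript, gave 10.96, 12.5 and 10.96 in normal livers and 2.31, 3.65 and 4.15 in tumors, or -1.81 (SE 0.23, limma adjusted p = 0.00286). Of 11 markers of stellate cells and fibroblasts, all tested, 5 were lower and 2 higher, and their summed expression value was 89.4 to 106.5 in normal livers and 30.3 to 50.7 in tumors. Most of this sum was Dcn, and the other 10 markers summed to 10.1 to 14.3 in normal livers and 12.5 to 17.95 in tumors. The largest falls among them were those of Lrat, the retinol-storing enzyme of stellate cells, at -1.83 (SE 0.22, limma adjusted p = 0.00233), and Dcn, a matrix proteoglycan, at -1.64 (SE 0.28, limma adjusted p = 0.00711), while the collagen gene Col1a1 was higher at 1.58 (SE 0.34, limma adjusted p = 0.0154) and Reln at 0.72 (SE 0.17, limma adjusted p = 0.0215). Endothelial markers summed to 116.0 to 130.5 and 97.98 to 106.7, with 1 of 10 higher and 2 lower. The part of either cell type in the Cxcl12 difference was not tested.

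Cxcl13, the B cell chemoattractant of lymphoid follicles, went the other way, at 0.420, 0.202 and 0.587 in normal livers and 1.53, 0.847 and 0.921 in tumors. Its groups were apart, with a log2 fold change of 1.53 (SE 0.42, limma adjusted p = 0.0346), or 2.88-fold. Its receptor Cxcr5 was above background in tumor 3 alone and was not tested. Markers of B lymphocytes and plasma cells summed to 5.46 to 6.72 in normal livers and 7.25 to 9.61 in tumors. Of the 5 tested, 2 were higher, Jchain at 1.60 (SE 0.35, limma adjusted p = 0.0168) and Mzb1, where 13.1% of all genes tested were higher. Both are genes of antibody-secreting cells, and Mzb1, above background in 1 normal liver only, passed the filter through the tumors. Cd79a, Cd79b and Cd22 were not called, at 0.80, 0.03 and -0.24. Pax5 and Tnfrsf17 were above background on no array, and the part of B lineage cells in the Cxcl13 difference was not tested. Ccl19, a Ccr7 ligand of lymphoid stroma, averaged 0.349 ± 0.0603 and 0.229 ± 0.0432 (SD, n = 3). Its groups did not overlap, yet its brightest probe was not called (log2 fold change -0.61, SE 0.20, limma adjusted p = 0.0533), whereas another of its probes was, at -0.67 (SE 0.17, limma adjusted p = 0.0270).

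Of 5 inflammatory CC ligands, 3 were tested and 1 was called, lower in the tumors. That one, Ccl6, a macrophage and myeloid ligand of Ccr1, was 3.17, 2.28 and 3.45 in normal livers and 1.81, 1.13 and 1.08 in tumors. The groups were apart, and the log2 fold change was -1.17 (SE 0.25, limma adjusted p = 0.0157), or 2.24-fold lower. The adjacent gene Ccl9, whose product also binds Ccr1, averaged 53.1 ± 3.55 and 44.5 ± 2.25 (SD, n = 3), again without overlap, and was not called (log2 fold change -0.26, SE 0.11, limma adjusted p = 0.118). Ccl5, next to Ccl9 in the same cluster on chromosome 11 and a product of activated T cells, averaged 1.84 and 1.79 (log2 fold change -0.09, SE 0.23, 95% interval -0.64 to 0.47, limma adjusted p = 0.798). Ccl3 was above background on no array and Ccl4 in tumor 1 alone, at 0.227 there and 0.0432 to 0.109 in normal livers, and neither was tested. Eosinophil-attracting Ccl24 was 1.28, 1.08 and 0.804 in normal livers and 0.151, 0.563 and 0.585 in tumors. Every tumor was under every normal liver, but tumor 1 lay far under the other tumors and the gene was not called (log2 fold change -1.49, SE 0.53, 95% interval -2.77 to -0.21, limma adjusted p = 0.0737). Its relatives Ccl11 and Ccl26 were above background on no array.

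Macrophage and Kupffer cell markers were lower beside these genes, with 8 of 13 tested markers lower and none higher, where 21.0% of all genes tested were lower. Their summed expression value was 128.6 to 215.8 in normal livers and 69.5 to 111.3 in tumors, and none of the 14 was at background everywhere. Clec4f, the receptor that marks Kupffer cells, fell by 1.84 on the log2 scale (SE 0.35, limma adjusted p = 0.0102) and Timd4, a marker of resident macrophages, fell by 1.65 (SE 0.30, limma adjusted p = 0.00886). Monocyte markers summed to 17.5 to 19.9 and 9.47 to 11.01, with 2 of 6 lower. One of them, Itgam, an integrin shared by myeloid cells, carried that fall, and the other 5 summed to 3.92 to 6.43 in normal livers and 5.24 to 6.32 in tumors. The part of these cells in the Ccl6 and Ccl24 values was not tested. Of the 8 eosinophil and mast cell markers 6 were above background on no array.

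Ccl2, the main ligand that brings Ccr2-bearing monocytes into inflamed liver, was 0.497, 0.368 and 1.06 in normal livers and 1.42, 0.779 and 0.465 in tumors. These values overlapped and gave a log2 fold change of 0.47 (SE 0.52, limma adjusted p = 0.522), with a 95% interval of -0.77 to 1.71 that reaches from a fall to a rise. Its probe stood on 10 spots of each array. The other monocyte ligands Ccl7 and Ccl12 were above background on no array, and Ccl8 in tumors 1 and 2 only. Of the ligands of Ccr4 and Ccr8, which serve type 2 and regulatory T cells, Ccl17 and Ccl22 were above background on no array. Ccl1, by a probe matched to an Ensembl transcript, averaged 0.243 and 0.207 (log2 fold change -0.20, SE 0.25, limma adjusted p = 0.568). Membrane-bound Cxcl16, the ligand of Cxcr6 on liver NKT cells, averaged 1.07 and 1.14 (log2 fold change 0.08, SE 0.16, limma adjusted p = 0.734). Cx3cl1, or fractalkine, averaged 0.212 and 0.226 (log2 fold change 0.09, SE 0.20, 95% interval -0.38 to 0.57, limma adjusted p = 0.744). Xcl1, a product of NK cells and T cells, was above background on no array.

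Cx3cr1, the fractalkine receptor of monocytes and macrophages, was the only receptor called, among the 3 tested. It was 0.303, 0.247 and 0.0911 in normal livers and 0.553, 0.606 and 0.487 in tumors, with normal liver 3 well under the other arrays. Only 2 of the 3 normal livers were well above background, and the log2 fold change was 1.53 (SE 0.44, limma adjusted p = 0.0383), or 2.88-fold. A second probe was above background in all 3 tumors, at 0.157 to 0.193, and in no normal liver, which bounds its difference at no less than 1.38-fold. It passed the filter only through the tumors, as the first probe did, and is no separate support. Its limma adjusted p of 0.00706 belongs to the fit to the measured values and not to the bound. The macrophage and monocyte markers given above were lower in the same tumors, and their part in the Cx3cr1 value was not tested. Cxcr6, the receptor of Cxcl16, averaged 0.403 ± 0.136 and 0.397 ± 0.119 (SD, n = 3), with a log2 fold change of -0.02 (SE 0.32, 95% interval -0.78 to 0.74, limma adjusted p = 0.968).

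The other receptors were not tested. Of these, 6 were above background on no array (Ccr1, Ccr1l1, Ccr4, Ccr8, Cxcr1 and Xcr1), 8 in tumors only and 2 in both groups. The share of all genes seen in tumors only was not counted. Over all spots, 47.3% to 48.9% were above background on the tumor arrays and 44.7% to 47.2% on the normal ones, so the 8 receptors have no background share beside them. Above background in 2 tumors and no normal liver were Ccr2 (0.154, 0.0734 and 0.155 in tumors against 0.0296 to 0.0662), Cxcr4 (0.181, 0.0829 and 0.143 against 0.0255 to 0.0574), Ccr7 (0.202, 0.156 and 0.106 against 0.0600 to 0.0872) and Ccr6 (0.114, 0.122 and 0.137 against 0.0370 to 0.0696). In each of these 4 receptors, which serve monocytes, many leukocytes, homing lymphocytes and Ccl20-responsive lymphocytes, all tumors gave higher signal than all normal livers, a pattern that being above background in tumors only favors. The signals lay near the background, which itself differed between the slides, and no fold is given. Ackr3, Ccr10, Ccr9 and Cxcr5 were above background in 1 tumor each. Ccr3, of eosinophils, was above background in 1 normal liver and 2 tumors, and Cxcr2, of neutrophils, in 2 of each.

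**Figure D4:**
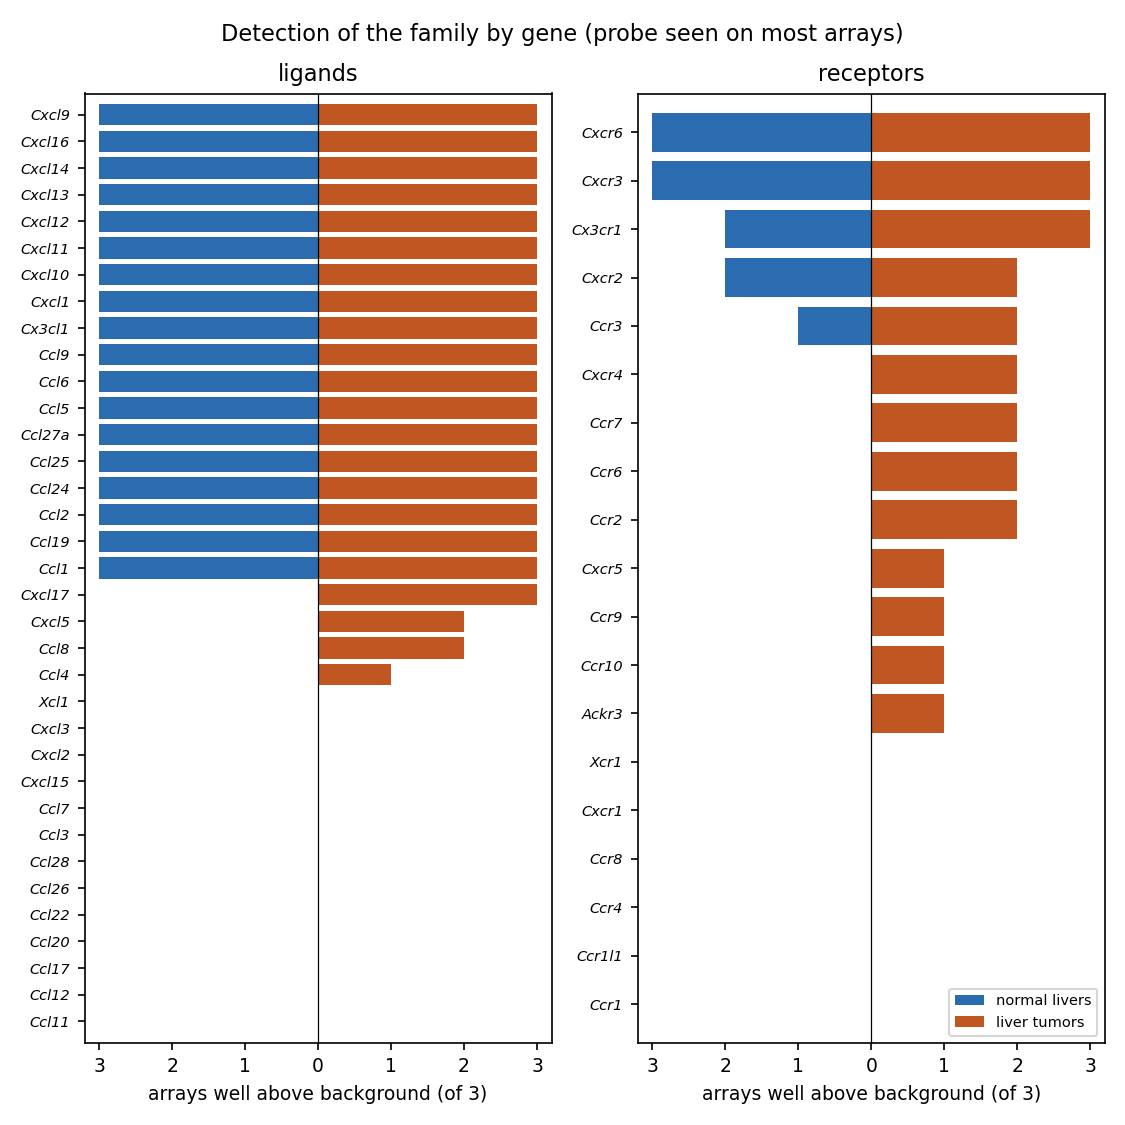
Number of arrays on which the ligands (left) and the receptors reported here (right) were well above background, to the left of 0 for the 3 normal livers and to the right for the 3 tumors, by the probe seen on most arrays. Cxcr3 and Cxcr6 are the only receptors drawn that are seen on all 6 arrays. In tumors only, 8 receptors are seen, a count not set against that of all genes.

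Genes of other steps in the pathway were followed in lists, in which the test was limma over all tested probes. The lists were chosen with earlier results of these data known, so their shares beside those of all genes only describe them. Of 21 inducers of chemokine genes, 16 were tested, 8 were higher and none lower, with a median log2 fold change of 0.56, where 13.1% of all genes tested were higher, 21.0% lower and the median was -0.13. Ltb, a lymphotoxin chain that drives lymphoid chemokines through the noncanonical NF-kB pathway, was the largest at 4.20 (SE 0.49, limma adjusted p = 0.00218). The AP-1 subunit Fos was above background in no normal liver, passed the filter only through the tumors and was at least 3.68-fold higher. Its limma adjusted p of 0.00417 belongs to the fit to the measured values and not to this bound. Relb, Nfkb2, Ltbr, Ifngr1, Ifngr2 and Il17ra were the others called. The cytokines Tnf, Il6, Ifng and Lta were above background on no array. Of 20 tested signalling genes downstream of the receptors, 4 were higher and 2 lower (median log2 fold change 0.03), a share near the 34.2% of all genes called. Grk3, a kinase that desensitizes receptors, was higher by 2.19 (SE 0.26, limma adjusted p = 0.00222), and Arrb1, an arrestin that uncouples them from G proteins, by 1.40 (SE 0.16, limma adjusted p = 0.00215). Of 8 tested genes that process or present chemokines, the protease Mmp14 was higher at 1.13 (SE 0.13, limma adjusted p = 0.00211) and the heparan sulfate enzyme Ndst1 lower at -0.50 (SE 0.12, limma adjusted p = 0.0253). The other chemokines and atypical receptors, such as Pf4, Rarres2, Ackr1 and Ackr2, gave 0 calls among 4 tested.

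The cells that carry the receptors were also followed by their markers. Of 9 T lymphocyte markers on the array 4 were tested and 1 was higher, Cd4 at 1.59 (SE 0.21, limma adjusted p = 0.00320). The summed expression value was 66.0 to 69.8 in normal livers and 140.9 to 244.5 in tumors, and most of it was Cd4. Without Cd4, the markers summed to 7.17 to 8.82 in normal livers and 7.02 to 9.12 in tumors. Cd8a and Cd8b1 were above background on no array, and Cd3e was not called (log2 fold change 0.03, limma adjusted p = 0.904). NK cell markers summed to 0.974 to 1.17 and 0.907 to 1.34, with 0 of 2 tested called and 5 of 8 above background on no array. Among 4 tested markers each, 1 of the dendritic cell list and 1 of the lymphatic endothelial list were higher, and none of either was lower. The part of T and NK cells in the Cxcl9 and Cxcl10 values was not tested.

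The 9 calls were recomputed under other processing. Cxcl10, Cxcl12 and Cxcl14 were called under all 15 alternatives run in limma, and Cxcl17 under the 14 in which it was tested. Cxcl17 ranged from 2.83 to 7.41 on the log2 scale, the widest of these, Cxcl14 from 2.82 to 4.04, Cxcl10 from 1.31 to 1.94 and Cxcl12 from -1.81 to -1.40. Cxcl9 and Cxcl13 lost the call under 6 alternatives, Cxcl1 and Cx3cr1 under 5 and Ccl6 under 4, and none of the 9 changed sign. By the methods' t-test on linear values in unpaired form, with its fold and expression criteria, Cxcl10, Cxcl13, Cxcl12, Ccl6 and Ccl24 passed. Cxcl17, Cxcl14, Cxcl1 and Cxcl9 did not, and Cx3cr1 was under the expression threshold. In the paired form that the study's methods name, run here by replicate number, only Cxcl12 and Ccl6 passed, both lower. Leaving out normal liver 2 ended the calls of Cx3cr1, Cxcl1, Cxcl13 and Cxcl9, and leaving out normal liver 1 those of Ccl6, Cxcl1, Cxcl13 and Cxcl9. Without tumor 2, Ccl6, Cx3cr1, Cxcl1, Cxcl13 and Cxcl9 were not called, without tumor 1 or tumor 3 Cx3cr1 and Cxcl13 were not, and without normal liver 3 Ccl6 and Cxcl9 were not. In 5 of the 7 members called higher, tumor 1 was the highest tumor.

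**Figure D5:**
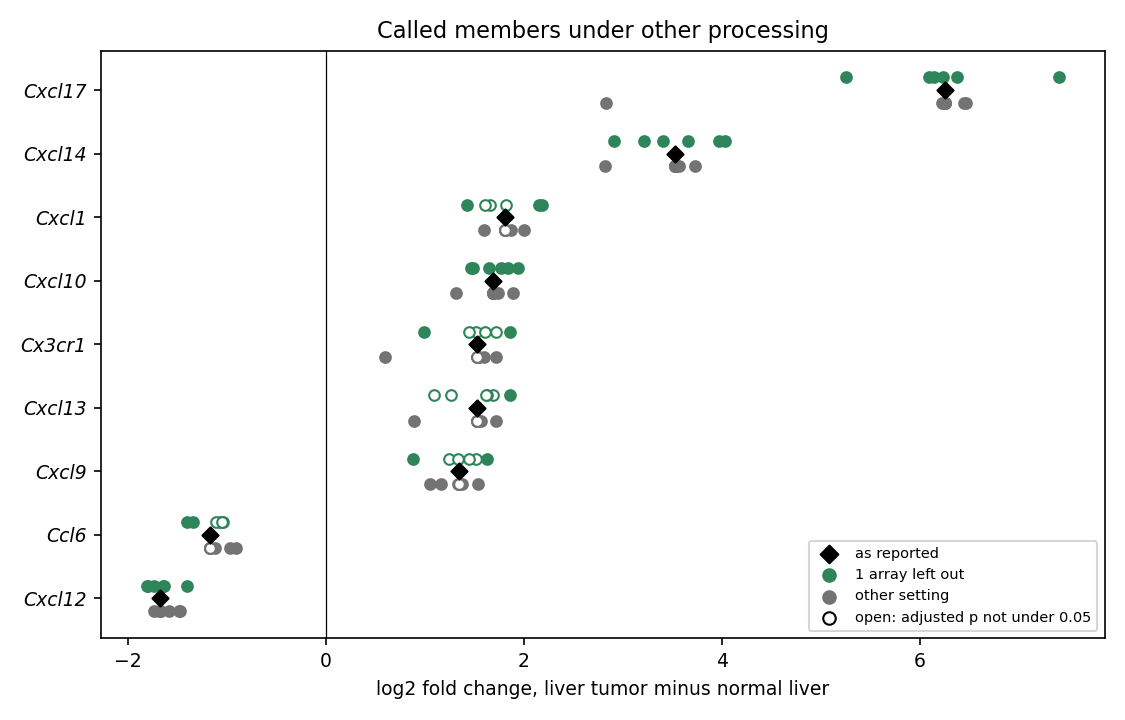
Log2 fold change of the 9 called members (x axis) as reported (black diamonds), with 1 array left out (green) and under other settings (grey), where open circles have an adjusted p of 0.05 or more. All points keep the side of 0 of the reported value, and Cxcl10, Cxcl12, Cxcl14 and Cxcl17 have filled circles only.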

How the data were processed

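Total RNA of 3 normal livers and 3 liver tumors was hybridized with Cy3 to 6 SurePrint G3 Mouse GE arrays. For each array the authors deposited scanner output with a processed intensity for each spot, from which the background had been subtracted and spatial trends removed. The labels name Feature Extraction 12.0.3.1 and the file headers another version. A table that the authors also deposited holds the same signal as a linear ratio, each array divided by its 75th percentile. It equaled the scaled intensity within 1% plus 0.01 for 100% of values and served as an alternative, and its column medians were 0.08 to 0.11. Every column belonged to a sample.

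Log2 of the intensity minus log2 of the 75th percentile over all spots (124 to 183) was computed. Control and outlier spots were left out and the spots of a probe averaged on the log2 scale. A probe was kept if every array of one or both groups was well above background, which held for 24898 of 55681. These were fitted in R 4.3.3 by lmFit and eBayes of limma 3.58.1, with two-sided p-values adjusted over all of them after Benjamini and Hochberg (threshold 0.05). A gene stood for its brightest tested probe. If no array of a group was well above background for a probe, its fold is a lower bound. The dim group then took, on each array, the weakest signal that was still well above background, or the probe's own if stronger. A p-value given near such a bound is that of the fit to the measured values, and the bound itself was not tested. The number of arrays limits the precision. The fit was tested on simulated data for this comparison (24886 probes), and it called 34 of 68 probes changed by 2-fold, 56 of 66 by 4-fold and 60 of 66 by 8-fold, with 7 false calls. Tables and plots were made in Python 3.11.15 with matplotlib 3.10.9, scipy 1.17.1, numpy 2.4.6 and pandas 2.3.3.

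Current symbols came from RefSeq annotation of GRCm38.p6, by accession for 27235 probes, symbol for 3581 and synonym for 565, and 24300 kept the design's name. Members, marker lists and pathway lists were chosen with earlier results of these data known. Every member is named except 1, which is not reported here, and of the lists at most the 2 called genes with the largest change are given with values, while others named were chosen after their values were seen. Proteins of the members are not shown here. Same-numbered normal and tumor arrays deviated with correlations of 0.07, 0.13 and 0.05, and differently numbered ones with -0.139 to 0.055. So few arrays cannot decide whether the numbers are pairs. The labels do not say so, and the main fit used no pairs.

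Alternatives were the table of ratios, normexp with an offset of 50, quantile normalization, scaling to 8 spike-in probes, a trend in eBayes, no filter and a stricter filter, the mean of a gene's probes, the replicate number as a block, each array left out, and the methods' t-test in unpaired and paired form with their 2-fold and 1.0 expression criteria.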

Additional observations from a re-analysis of the deposited data

How the results depend on the processing

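As reported, 9 members (7 higher, 2 lower) and 8238 of all tested probes were called. The count of member calls stayed within 1.5 times of that with the table of ratios, quantile normalization, normexp, spike-in scaling, a trend, the stricter filter and the mean of a gene's probes. With no filter on dim probes, 4 members were higher and 4674 probes were called. With the methods' t-test in unpaired form, 5 members met the criteria, 2 of them higher and 3 lower (Cxcl10, Cxcl13, Cxcl12, Ccl6 and Ccl24), 1 was left after Benjamini-Hochberg adjustment, and 2036 probes met them in all. In its paired form, 2 members (Cxcl12 and Ccl6) met them, 0 were higher, and 1599 probes did so in all. Scaling by spike-ins left 5282 probes called, with a median log2 fold change of 0.07 against -0.13 and 63.6% of the calls higher against 37.8%, or 46.8% with quantile normalization, and the same 9 members called. With the replicate number as a block, 7 members were called (5 higher, 2 lower, without Cxcl1 and Cxcl9) and 7020 probes, 2805 higher and 4215 lower. Whether equal numbers are pairs could not be decided. Leaving out 1 array at a time gave 5 to 9 member calls, 3 to 7 higher and 1 to 3 lower, and 4965 to 7116 probes. Ccl24 was called with normexp and without tumor 1, and Ccl19 with the stricter filter and with the mean of its probes. Without a filter Ccr6 was also called. Some dim members entered the test when an array was left out: Ccr2 and Cxcr4 were called without tumor 2, Ccr7 and Cxcl5 without tumor 3 and Ccr6 without tumor 1. Each was above background in 2 tumors and no normal liver, and the array left out was its dimmest tumor. They thus passed the filter only through the tumors in which they were bright, and these calls are no separate support for a difference.

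Signs turned only among members that were not called. Cx3cl1 was -0.041 with normexp and ran from -0.054 to 0.22 with 1 array left out, below 0 without tumor 1 (-0.053) or normal liver 3. Cxcr6 was 0.033 with quantile normalization and 0.18 with spike-ins, and ran from -0.20 to 0.26, above 0 without tumor 3 or normal liver 3 (0.24). Ccl5 was 0.11 with spike-ins and ran from -0.35 to 0.065, above 0 without tumor 2 or tumor 3 (0.026). Cxcl16 ran from -0.051 (without tumor 1) to 0.19, and Cxcl11 from -0.082 (without normal liver 3) to 0.10, also below 0 without tumor 2 (-0.0065). The cause of these changes was not tested. With 33 of 55 members near or below background, most receptors have no measured difference here.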
